A study of Mus musculus with 37 samples.

Results

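The N-methyl-D-aspartate (NMDA) receptor genes of the mouse were followed in ribosome-bound RNA from ventral midbrain neurons. The members were the 7 genes that encode receptor subunits (Grin1, Grin2a, Grin2b, Grin2c, Grin2d, Grin3a and Grin3b), found by gene symbol among the 57180 genes of the count tables. All mice carried the NuTRAP transgene, in which the ribosomal protein L10a is fused to EGFP and is made only where Cre recombinase has removed a stop cassette, so tagged ribosomes and the mRNA on them can be pulled down with an antibody to GFP. In DAT;NuTRAP mice, Cre followed the dopamine transporter gene Slc6a3 (DAT-IRES-cre), and these libraries came from 9 old mice (4 females and 5 males, all 21 months) and 10 young mice (5 of each sex, 8 to 10.5 months). In VGAT;NuTRAP mice, Cre followed the vesicular GABA transporter gene Slc32a1 (Vgat-ires-cre), and these libraries came from 8 old mice (5 females and 3 males, 21 to 24 months) and 10 young mice (6 females and 4 males, 7 to 9 months). Each library was 1 mouse. Cre marks every cell that has used its promoter, and the tissue was a midbrain slice that held both the substantia nigra pars compacta and the ventral tegmental area, so each library averages over neuron subtypes.

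NMDA receptors are glutamate-gated channels built from 4 subunits, and they admit calcium when glutamate and a co-agonist, glycine or D-serine, are bound while the membrane is depolarized. GluN1, encoded by Grin1, is obligatory and binds the co-agonist. GluN2 subunits (Grin2a to Grin2d) bind glutamate and set the kinetics and magnesium block of the channel, and GluN3 subunits (Grin3a and Grin3b) bind glycine and lower calcium permeability. In midbrain dopamine neurons these receptors take part in burst firing and in the plasticity of excitatory inputs.

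The genes are related but separate in sequence. A stretch of 30 coding bases from the third membrane segment of the channel, a part of the pore known to be conserved among ionotropic glutamate receptors, is printed here for 5 of the genes to show how many bases part the subunits even there. It was read from the GRCm39 genome with GENCODE gene models, 5′ to 3′ on the coding strand, and capitals mark the bases that differ from Grin1.
Grin1: tcctacactgccaacctggcagccttcctg
Grin2a: AGTtacacAgccaacctggcTgccttcAtg
Grin2c: AGctacacGgccaaTctggcagccttcAtg
Grin3a: AcAtacacAgcGaacTtggcTgcTGtcAtg
Grin3b: AGTtacacAgccaacctggcagcTGtcAtg
The Grin1 stretch lies in exon 15 of 21 (chr2:25187208-25187237, minus strand). Grin2a differed from it at 6 bases (chr16:9471308-9471337, minus strand) and Grin2c at 5 (chr11:115144572-115144601, minus strand). Grin3a differed at 9 bases (chr4:49770467-49770496, minus strand) and Grin3b at 7 (chr10:79810470-79810499, plus strand). Over the aligned coding sequences, identity between pairs ran from 59.99% for Grin2c with Grin3a to 69.67% for Grin2c with Grin2d.

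The genes also differ in size and in what overlaps them. Their merged exons spanned 25460 bases for Grin2b, 17933 for Grin2a, 13142 for Grin3a, 11146 for Grin2c, 11089 for Grin1, 7860 for Grin2d and 3296 for Grin3b. The strand setting of the read counting was not stated, so reads of a member and of an antisense gene over its exons cannot be told apart. This applies to 6 of the 7 members: Grin1, overlapped by Lrrc26 and Grin1os, Grin2b, by Gm14329, Gm26653 and Gm55601, Grin2c, by Gm56352, Grin2d, by Gm45441, Grin3a, by Gm70166, and Grin3b, by Tmem259 and Gm67283. Exons of Grin2b also overlap those of Gm65988, a protein-coding gene on the same strand, and no strand setting would part their reads there.

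The 37 libraries held 13841253 to 38235015 counts each. The genes of the labels split the models: Slc6a3, the dopamine transporter, had 2593 to 4259 CPM (counts scaled to libraries of one size) in DAT;NuTRAP libraries, against 249 to 1238 CPM in VGAT;NuTRAP libraries, and Slc32a1 had 62.7 to 135 CPM in DAT;NuTRAP, against 228 to 535 CPM in VGAT;NuTRAP. All 8 dopamine neuron markers were called higher in DAT;NuTRAP and all 3 GABA neuron markers lower, yet neither set was at 0 in the other model. Among markers of glia and vessels, 11 of 12 astrocyte, 8 of 8 oligodendrocyte, 5 of 5 endothelial and 1 of 10 microglial markers were called higher in DAT;NuTRAP. Over all genes 30% were, and 1 astrocyte marker was called lower (-0.51). Among markers of other neurons, 1 of 3 glutamate neuron, 1 of 4 motor neuron, 2 of 4 cortex and hippocampus and 1 of 2 cerebellar granule cell markers tested were called higher. In the motor neuron list and the cortex and hippocampus list, 1 marker each was called lower. The labels give a first and a second batch, each with every model and age, and the libraries of the batches differed in how well GC-rich transcripts were represented. The batch labels do not say whether batches of the same name in DAT;NuTRAP and VGAT;NuTRAP were processed together. A contrast of the models within a batch may therefore still include processing.

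Grin1 had the highest level of the family in both models when counts were scaled by exon length. In DAT;NuTRAP libraries the mean levels per kilobase of merged exon were 13.5 CPM for Grin1, 8.27 for Grin2d, 4.92 for Grin2b, 3.91 for Grin3a, 3.16 for Grin2a, 2.98 for Grin2c and 0.127 for Grin3b (n = 19). Grin1 was above Grin2d in 19 of 19 libraries and Grin2d above Grin2b in 18, but Grin2b was above Grin3a in 13 and Grin2a above Grin2c in 10, so those neighbours were not separated. In VGAT;NuTRAP libraries the order was 22.6 CPM per kilobase for Grin1, 10.1 for Grin2d, 7.76 for Grin3a, 6.64 for Grin2b, 6.28 for Grin2a, 0.834 for Grin2c and 0.362 for Grin3b (n = 18). There Grin2b was above Grin2a in 10 of 18 libraries, Grin2d above Grin3a in 16, and Grin2c above Grin3b and below Grin2a in 18. Scaled by the longest transcript in place of all exons, Grin3a had 13.1 and Grin2d 11.7 CPM per kilobase in VGAT;NuTRAP, so the order of these neighbours depends on the length used.

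**Figure D1:**
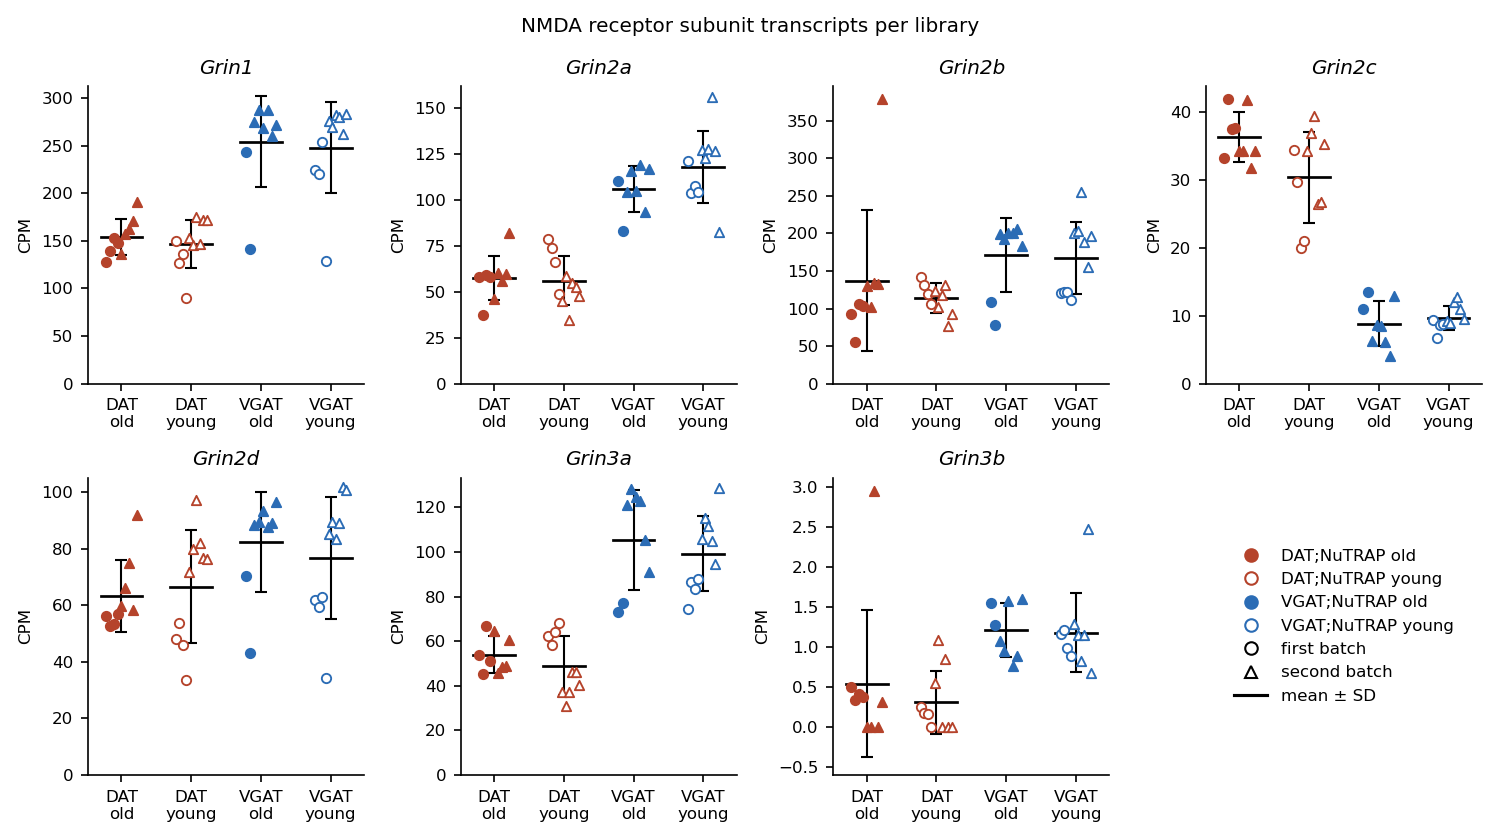
Level of each subunit gene (vertical axis, TMM-scaled CPM) in every library, with 1 panel per gene and the groups old and young DAT;NuTRAP, then old and young VGAT;NuTRAP along the horizontal axis; marker shape gives the batch and the bars the mean ± SD. Grin2a and Grin3a points of DAT;NuTRAP all lie below those of VGAT;NuTRAP, Grin2c points all lie above, and 1 old DAT;NuTRAP male stands at 380 CPM for Grin2b.

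The first question was how subunit expression differed between the models. All 7 subunits were called at an adjusted p below 0.05 in the fit over both ages, 6 lower in DAT;NuTRAP and 1, Grin2c, higher. Over all 16898 genes tested 60.5% were called, 30.4% lower and 30% higher, so a call in itself sets no gene apart here. Groups that do not overlap were less common: in 3.37% of genes every DAT;NuTRAP library was above every VGAT;NuTRAP library, and in 4.99% every one was below. Among the subunits Grin2c met the first pattern, and Grin2a and Grin3a met the second. In bulk RNA of this kind, fewer cells of a type and less RNA per cell cannot be told apart, and model is also mouse line.

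Grin1, the obligatory subunit, had a lowest, median and highest value of 90.1, 150 and 191 CPM in DAT;NuTRAP libraries, against 129, 269 and 287 CPM in VGAT;NuTRAP libraries. The groups overlapped only through first-batch VGAT;NuTRAP libraries, and within the second batch DAT;NuTRAP libraries (136 to 191 CPM) were all below VGAT;NuTRAP libraries (260 to 287 CPM). The log2 fold change of DAT;NuTRAP over VGAT;NuTRAP was -0.70 ± 0.07 (SE, edgeR adjusted p = 8.25e-12). It was -0.58 within the first batch and -0.78 within the second.

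Grin2a, which encodes the GluN2 subunit typical of mature forebrain synapses, had 34.8, 58.0 and 81.9 CPM as lowest, median and highest in DAT;NuTRAP, against 82.6, 113 and 156 CPM in VGAT;NuTRAP. The highest DAT;NuTRAP library was just under the lowest VGAT;NuTRAP library. The difference on the log2 scale was -0.98 ± 0.09 (edgeR adjusted p = 1.94e-12), with -0.79 in the first batch alone and -1.11 in the second.

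Grin2b, which encodes the GluN2 subunit that prevails early in development and gives slow currents, had 54.9, 118 and 380 CPM in DAT;NuTRAP, against 78.1, 190 and 255 CPM in VGAT;NuTRAP. The groups overlapped widely, and the DAT;NuTRAP maximum was the single library old male 5, with 11132 counts, while no other old DAT;NuTRAP library was above 134.6 CPM. The log2 fold change was -0.34 ± 0.15 with an edgeR adjusted p of 0.0418, close to the threshold. This call was kept in 19 of 37 fits that left out 1 library (adjusted p up to 0.0692) and was lost with RLE scaling (edgeR adjusted p = 0.0533). Without old male 5 it was -0.54 ± 0.11 (edgeR adjusted p = 5.75e-05). Batch by batch, it was -0.00 in the first batch (edgeR adjusted p = 0.983) and -0.55 in the second (edgeR adjusted p = 0.0119), and the difference between the batches was not tested. In VGAT;NuTRAP libraries Grin2b ran from 78.1 to 123 CPM in the first batch and from 156 to 255 CPM in the second.

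Grin2c, which encodes a GluN2 subunit with weak magnesium block that is best known from cerebellar granule cells and is also made by astrocytes, ran the other way. Its lowest, median and highest values were 19.9, 34.3 and 41.9 CPM in DAT;NuTRAP, against 4.06, 9.00 and 13.4 CPM in VGAT;NuTRAP. Every DAT;NuTRAP library was above every VGAT;NuTRAP library. DAT;NuTRAP over VGAT;NuTRAP gave a log2 fold change of 1.85 ± 0.12 (edgeR adjusted p = 1.91e-17), 1.63 in the first batch and 1.90 in the second. Beside it, the summed level of the 12 astrocyte markers ran from 896 to 2320 CPM in DAT;NuTRAP (median 1430), against 886 to 1415 CPM in VGAT;NuTRAP (median 1009), with no marker at 0, and the median log2 fold change of these markers was 1.45. The part of astrocyte RNA in the Grin2c difference was not tested.

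Grin2d, which encodes the slowest GluN2 subunit and is known from the midbrain and other deep nuclei, had 33.6, 59.6 and 97.1 CPM in DAT;NuTRAP, against 34.2, 88.1 and 102 CPM in VGAT;NuTRAP. The groups overlapped over most of their range, and batch separated the libraries within each model: DAT;NuTRAP ran from 33.6 to 56.9 CPM in the first batch and from 58.4 to 97.1 CPM in the second, and VGAT;NuTRAP from 34.2 to 70.5 and from 83.6 to 102 CPM. Its log2 fold change was -0.22 ± 0.08 (edgeR adjusted p = 0.0103). Within the first batch the call was lost (-0.17, edgeR adjusted p = 0.411), and within the second it was -0.30.

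Grin3a, which encodes the widespread GluN3 subunit, had 30.9, 49.0 and 68.0 CPM in DAT;NuTRAP, against 73.2, 105 and 129 CPM in VGAT;NuTRAP. The groups did not overlap. On the log2 scale the fold change was -0.99 ± 0.10 (edgeR adjusted p = 1.70e-11), but its size moved with batch, -0.44 in the first and -1.31 in the second.

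Grin3b, which encodes the GluN3 subunit best known from motor neurons, was near the limit of detection. It had 0 to 87 counts in DAT;NuTRAP libraries, with 7 of 19 at 0, against 17 to 67 counts in VGAT;NuTRAP libraries. A count of 0 allowed up to 3 counts, which was 0.0776 to 0.214 CPM in those 7 libraries for counting error alone. As levels, the lowest, median and highest values were 0, 0.252 and 2.95 CPM in DAT;NuTRAP, against 0.671, 1.15 and 2.47 CPM in VGAT;NuTRAP, so most DAT;NuTRAP libraries were below all of VGAT;NuTRAP and 1, old female 4, was above. The log2 fold change was -1.55 ± 0.58 (edgeR adjusted p = 0.0186), and it was not called within the second batch (-1.21, edgeR adjusted p = 0.259), which held 6 of the 7 libraries at 0. Second-batch DAT;NuTRAP libraries also had fewer genes with any count, 14323 to 18170. First-batch DAT;NuTRAP libraries had 19085 to 21051 and second-batch VGAT;NuTRAP libraries 18485 to 21803. The part of this difference in the Grin3b zeros was not tested. Tmem259, whose exons overlap Grin3b on the other strand, ran from 66.6 to 186 CPM over all libraries, and its part in the Grin3b counts was not tested.

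**Figure D2:**
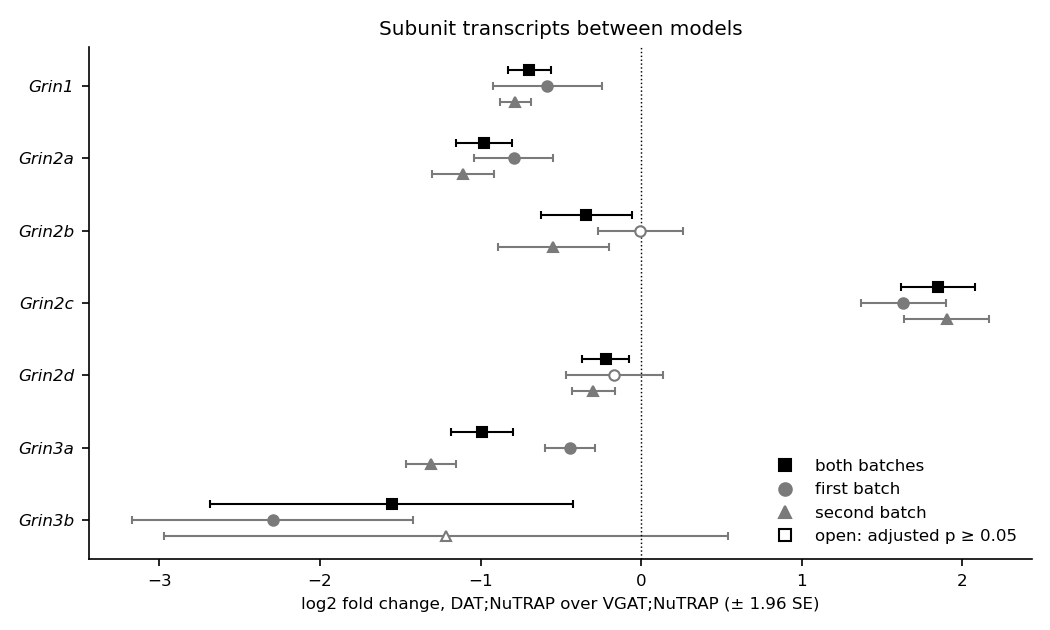
Log2 fold change of DAT;NuTRAP over VGAT;NuTRAP (horizontal axis) for each subunit gene, fitted over both batches, the first batch alone and the second batch alone. Bars give an approximate 95% interval from the SE, and open symbols have an adjusted p of 0.05 or more. Grin2c lies to the right of 0 in all fits (1.63 to 1.90), and Grin2b and Grin2d have open symbols in the first batch (-0.00 and -0.17), as does Grin3b in the second (-1.21).

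The same contrast at each age gave the same directions with fewer calls. Among young mice 6 subunits were called, 5 lower and 1 higher, where 49.8% of genes were (25.4% lower and 24.3% higher), and Grin2d was not (-0.22, edgeR adjusted p = 0.0744). Young Grin2b was close to the threshold (-0.46, edgeR adjusted p = 0.0476) and kept its call in 12 of 37 fits that left out 1 library. Among old mice 4 subunits were called, where 46.8% of genes were (24.1% lower and 22.7% higher): Grin1 (-0.64), Grin2a (-0.88), Grin3a (-0.96) and Grin2c (2.05). Old Grin2b was not called (-0.22, edgeR adjusted p = 0.425), but without old male 5 it was (-0.57, edgeR adjusted p = 0.00383), as was Grin2d (-0.29, edgeR adjusted p = 0.0335). Old Grin3b was not called (-1.11, edgeR adjusted p = 0.285), and without old female 4 it was (-2.36, edgeR adjusted p = 0.0276). In limma-voom 6 subunits were called among old mice, with Grin2d (-0.25, limma adjusted p = 0.0484) and Grin3b (-2.73, limma adjusted p = 0.0021) added.

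The make-up of the GluN2 pool was compared as the share of each GluN2 gene in the summed length-scaled GluN2 counts of a library. Grin2a made up 16.7 ± 3.80% of the pool in DAT;NuTRAP and 27.0 ± 5.04% in VGAT;NuTRAP (SD, n = 19 and 18). Grin2c made up 15.8 ± 3.53% in DAT;NuTRAP and 3.67 ± 1.50% in VGAT;NuTRAP. Both differences (-10.3 and 12.1 percentage points) had the smallest p that 100000 two-sided permutations can give, 1e-05, with an adjusted p of 5e-05 over the 15 make-up tests. Grin2d was the largest share in both, 42.8 ± 6.91% in DAT;NuTRAP and 41.8 ± 4.72% in VGAT;NuTRAP, and this difference did not pass (permutation test, adjusted p = 0.787). Grin2b made up 24.7 ± 6.45% in DAT;NuTRAP and 27.5 ± 3.86% in VGAT;NuTRAP, and did not pass either (permutation test, adjusted p = 0.38), although without old male 5 it did (-3.80 percentage points, permutation test, adjusted p = 0.0358).

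The balance of GluN2 to GluN1 differed too. The log2 ratio of summed GluN2 to Grin1, both scaled by length, was 0.504 ± 0.194 in DAT;NuTRAP and 0.0800 ± 0.140 in VGAT;NuTRAP (SD, n = 19 and 18; difference 0.424, permutation test, adjusted p = 5e-05). The sign of the ratio rests on the length: scaled by the longest transcript, it was -0.33 ± 0.19 in DAT;NuTRAP and -0.74 ± 0.14 in VGAT;NuTRAP, with a difference of 0.411. With batches kept apart in the permutation, the difference was 0.429 for this ratio, -10.9 percentage points for Grin2a and 11.9 for Grin2c, and all 3 had an adjusted p of 5e-05.

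**Figure D3:**
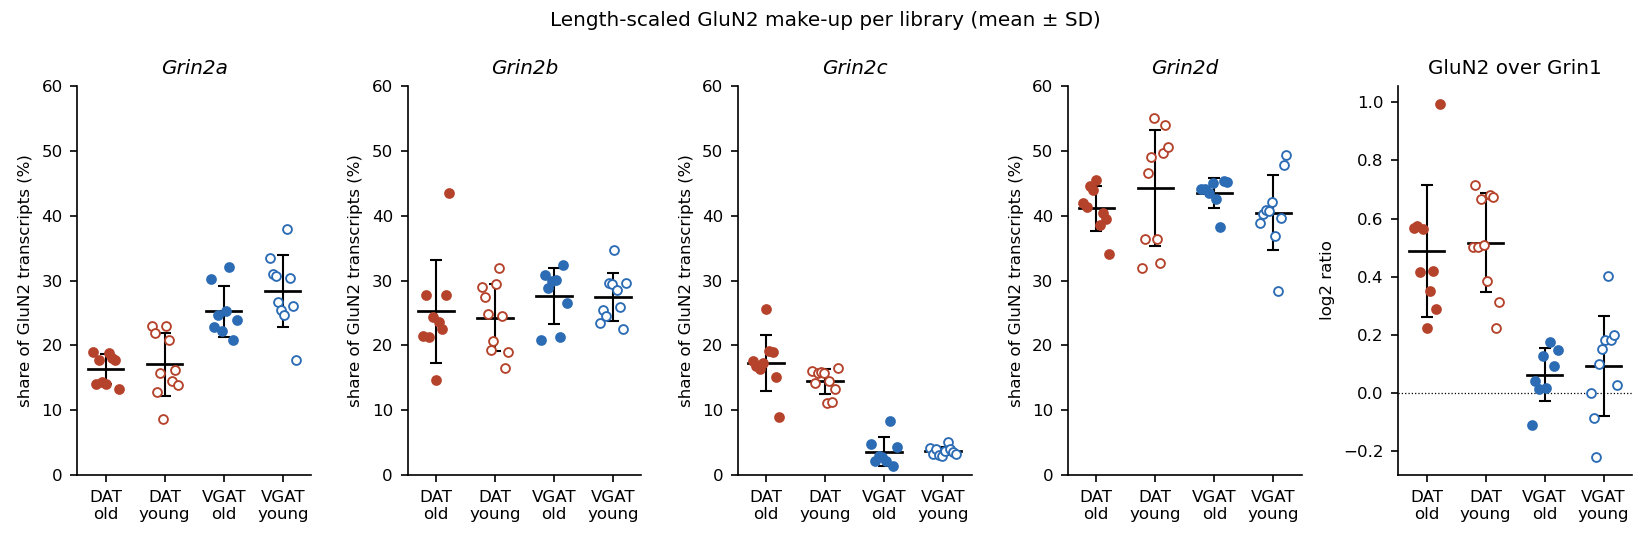
Share of each GluN2 gene in the length-scaled GluN2 pool of a library (vertical axis, percent) and the log2 ratio of summed GluN2 to Grin1, 1 point per library, with old and young DAT;NuTRAP left of old and young VGAT;NuTRAP and bars for mean ± SD. The Grin2c share averages 15.8% in DAT;NuTRAP and 3.67% in VGAT;NuTRAP, and the Grin2d share averages 42.8% and 41.8%.

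The second question was whether subunit expression changed with age. No subunit was called in any of the age comparisons, in either model, over both sexes or within 1 sex, by edgeR, DESeq2 or limma-voom. In DAT;NuTRAP 0 of 6 subunits tested were called, where 0.00672% of 14889 genes were, and Grin3b was too low to test. At an unadjusted p below 0.05 there was 1, Grin2c, where 5.28% of genes had such a p. In VGAT;NuTRAP 0 of 7 were called, where 0.0256% of 15607 genes were, and 0 had an unadjusted p below 0.05 in edgeR and 1, Grin2a, in DESeq2, where 5.98% of genes did in edgeR. A p that misses the threshold does not show that levels were the same. Changes well beyond the SE can go uncalled, as Grin2c in DAT;NuTRAP males did at 0.54 ± 0.16.

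In DAT;NuTRAP, Grin1 had 127, 153 and 191 CPM as lowest, median and highest in old mice, against 90.1, 148 and 175 CPM in young mice, a log2 fold change of 0.09 ± 0.08. Grin2c had 31.7, 34.3 and 41.9 CPM in old mice, against 19.9, 31.9 and 39.4 CPM in young mice. Its log2 fold change was 0.27 ± 0.12 (unadjusted p = 0.0345 in edgeR, adjusted p = 0.931). The old range sat inside the upper part of the young range apart from its top, and the young group held the low libraries. Within the first batch the Grin2c estimate was 0.51 and within the second 0.09. Over the same libraries the summed astrocyte markers ran from 1008 to 2320 CPM in old mice, against 896 to 1884 CPM in young mice, with 0 of 12 called and a median log2 fold change of 0.30; their part in the Grin2c estimate was not tested.

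The other DAT;NuTRAP subunits showed wide overlap between ages. Grin2a had 37.1, 58.0 and 81.9 CPM in old mice, against 34.8, 53.7 and 78.8 CPM in young mice (0.04 ± 0.13). Grin3a had 45.2, 51.2 and 66.8 CPM in old mice, against 30.9, 46.3 and 68.0 CPM in young mice (0.15 ± 0.11). Grin2d had 52.5, 58.4 and 91.9 CPM in old mice, against 33.6, 74.1 and 97.1 CPM in young mice (-0.00 ± 0.10). Several of these near-zero averages were made of opposite values in the batches: Grin2a was -0.34 in the first batch and 0.32 in the second, Grin3a -0.23 and 0.44, Grin2d 0.26 and -0.19. The difference between batches was not tested.

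Grin2b in DAT;NuTRAP turned on 1 library. It had 54.9, 106 and 380 CPM in old mice, against 76.1, 119 and 141 CPM in young mice, a log2 fold change of 0.22 ± 0.27. Without old male 5, the old mean was 107 ± 26.4 CPM (SD, n = 8) and the log2 fold change was -0.10 ± 0.14. It was -0.49 in the first batch and 0.72 in the second, which holds that library.

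In VGAT;NuTRAP the estimates were small. Grin1 had 141, 270 and 287 CPM in old mice, against 129, 266 and 283 CPM in young mice. Grin2a, the subunit with the lowest unadjusted p, had 82.9, 108 and 119 CPM in old mice, against 82.6, 122 and 156 CPM in young mice. Its upper values were all young, while the low ends matched, and the log2 fold change was -0.18 ± 0.09 (unadjusted p = 0.0617 in edgeR), -0.18 in either batch alone. Grin2b had 78.1, 196 and 206 CPM in old mice, against 111, 172 and 255 CPM in young mice (-0.12 ± 0.08). The rest overlapped in full or nearly so: Grin2c had medians of 8.54 CPM in old and 9.24 CPM in young mice, Grin2d 88.8 and 84.5 CPM, and Grin3a 113 and 99.8 CPM. Grin2c had opposite values in the batches, 0.54 in the first and -0.45 in the second.

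**Figure D4:**
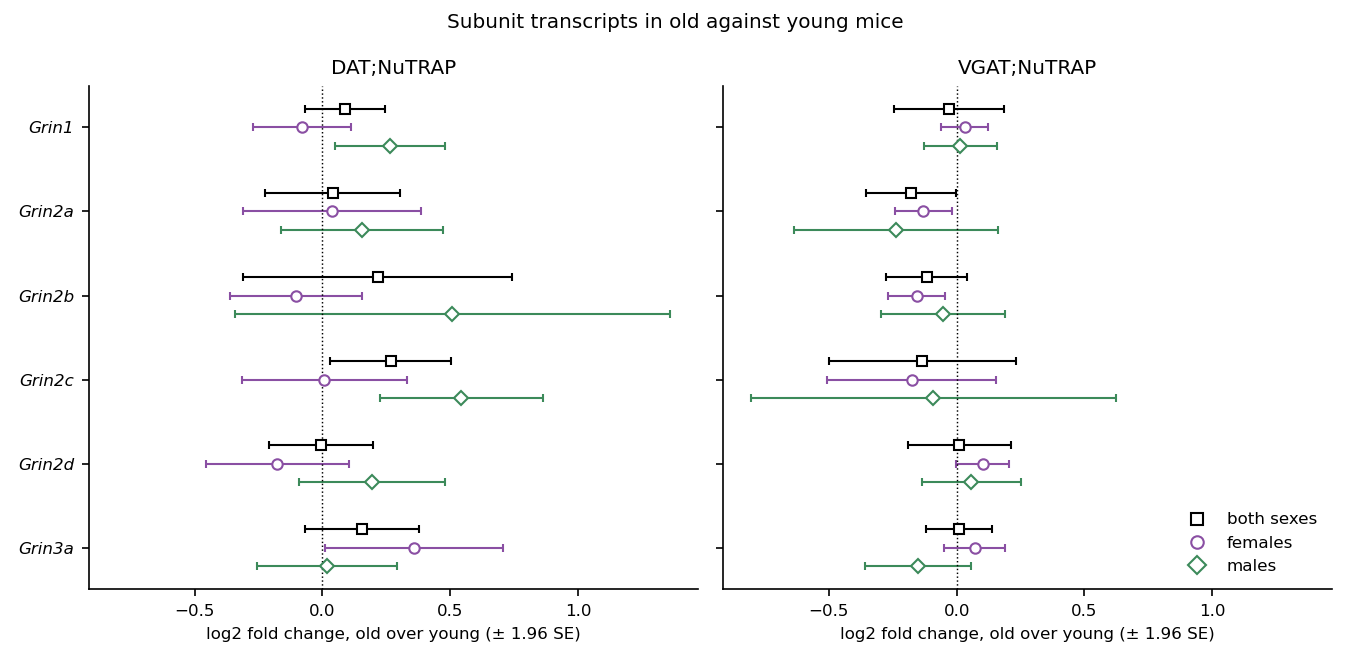
Log2 fold change of old over young (horizontal axis) for the 6 subunit genes other than Grin3b, by model, for both sexes, females and males. Bars give an approximate 95% interval from the SE, and can miss 0 where the unadjusted edgeR p is above 0.05. No estimate has an adjusted p under 0.05; the widest bars belong to Grin2b in DAT;NuTRAP males (0.51 ± 0.43, SE).

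Within 1 sex, the lowest unadjusted p was that of Grin2c in DAT;NuTRAP males. In these mice Grin2c had 41.9, 37.6, 37.7, 31.7 and 34.3 CPM in the 5 old males, against 19.9, 21.1, 26.4, 26.8 and 35.3 CPM in the 5 young males. Only 1 young male reached the old range. The log2 fold change was 0.54 ± 0.16 (unadjusted p = 0.00456 in edgeR, adjusted p = 0.831), where 0% of 15789 genes were called and 5.5% had an unadjusted p below 0.05. Within the first batch it was 0.94 and within the second 0.18.

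Grin1 in the same mice had 139, 153, 148, 171 and 191 CPM in old males, against 136, 90.1, 146, 172 and 172 CPM in young males. The groups overlapped and 1 young male was low. The log2 fold change was 0.27 ± 0.11 (unadjusted p = 0.0294 in edgeR, adjusted p = 0.904), 0.38 in the first batch and 0.16 in the second. Grin2b had 54.9, 106, 103, 133 and 380 CPM in old males, against 120, 106, 132, 76.1 and 92.7 CPM in young males. Its log2 fold change was 0.51 ± 0.43, and -0.05 ± 0.23 without old male 5. With no count filter, the estimate with that library was called (edgeR adjusted p = 0.00073).

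DAT;NuTRAP females showed no estimate of that size for Grin2c or Grin1. The female value furthest from 0 was that of Grin3a, 0.36 ± 0.18 (unadjusted p = 0.0590 in edgeR), with 0% of 14839 genes called and 4.05% at an unadjusted p below 0.05. The Grin3a estimate was -0.17 in the first batch, which holds 1 old female, and ran from 0.21 without old female 2 to 0.59 without old female 1. The difference of the age effect between the sexes, male minus female, was 0.54 ± 0.22 for Grin2c (unadjusted p = 0.0208 in edgeR) and 0.35 ± 0.15 for Grin1 (unadjusted p = 0.0326 in edgeR), neither called. Over all genes 0% of 16560 were called in that interaction and 4.25% had an unadjusted p below 0.05, these 2 of 7 subunits among them.

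In VGAT;NuTRAP females Grin2b had 108, 200, 192, 201 and 200 CPM in old mice, against 121, 121, 123, 201, 203 and 255 CPM in young mice. The low values were the first-batch libraries of both ages. With batch in the fit, the log2 fold change was -0.16 ± 0.06 (unadjusted p = 0.0122 in edgeR, adjusted p = 0.875), and that of Grin2a was -0.13 ± 0.06 (unadjusted p = 0.0341 in edgeR). Here 0.032% of genes were called and 5.59% had an unadjusted p below 0.05. VGAT;NuTRAP males, with 3 old mice, gave no subunit with an unadjusted p below 0.05, where 5.12% of genes had one and 0.0315% were called. The interaction of age with sex in VGAT;NuTRAP gave none either, where 5.09% of genes had one and 0% were called.

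The age effect was also compared between the models directly. No subunit was called, 0% of 16898 genes were, and 2.76% had an unadjusted p below 0.05. The largest difference relative to its error was that of Grin2c, 0.40 ± 0.23 for DAT;NuTRAP minus VGAT;NuTRAP (unadjusted p = 0.0866 in edgeR). In limma-voom Grin2c was the 1 subunit with an unadjusted p below 0.05, and in DESeq2 there were 0.

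The GluN2 shares gave no call with age. The Grin2c share was 17.3 ± 4.34% in old DAT;NuTRAP mice and 14.4 ± 1.97% in young ones (SD, n = 9 and 10), a batch-centred difference of 2.76 percentage points (exact permutation within batches, two-sided p = 0.0779, adjusted p = 0.292). Without old male 5 it was 3.76 percentage points (exact permutation, adjusted p = 0.0115). In VGAT;NuTRAP the Grin2a share was 25.3 ± 3.94% in old and 28.4 ± 5.57% in young mice (SD, n = 8 and 10; exact permutation, adjusted p = 0.517). None of the other 8 age tests of a share or of the ratio to Grin1 passed.

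GC content divides the family, and the representation of GC-rich transcripts differed between the groups. The longest transcripts of Grin2d, Grin3b, Grin1 and Grin2c were GC-rich, at 64.8%, 63.4%, 59.8% and 57.2%, which placed them at the percentiles 99.8, 99.4, 96.3 and 89.7 of all genes compared. Grin3a was at 49.5% (percentile 51.7), and Grin2b and Grin2a were lower, at 45.8% and 45.1% (percentiles 30.8 and 26.7). The GC balance of a library, the mean log2 CPM of the 10% of expressed genes richest in GC minus that of the 10% poorest, was 0.115 to 0.255 in old and -0.359 to -0.0146 in young first-batch DAT;NuTRAP libraries, so the ages did not overlap. In the second batch it was 0.440 to 0.622 in old and 0.538 to 0.619 in young DAT;NuTRAP libraries. VGAT;NuTRAP second-batch libraries had lower values than these, 0.0445 to 0.167 in old and 0.0932 to 0.243 in young mice. First-batch VGAT;NuTRAP libraries ran from -0.438 to 0.110.

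With GC balance as a covariate, chosen after the data were seen, the age estimates in DAT;NuTRAP were 0.15 ± 0.12 for Grin2c and -0.01 ± 0.08 for Grin1, closer to 0 than without it, and -0.16 ± 0.09 for Grin2d, further from 0. In DAT;NuTRAP males Grin2c was 0.34 ± 0.17 and Grin1 0.10 ± 0.10. Between the models, Grin2c was 1.64 ± 0.17, Grin1 -0.88 ± 0.09, Grin2a -0.85 ± 0.13, Grin2d -0.49 ± 0.10, Grin3a -0.56 ± 0.10 and Grin3b -2.64 ± 0.92, all called, while Grin2b was -0.05 ± 0.20 (edgeR adjusted p = 0.867). In the second batch GC balance did not overlap between the models, and in first-batch DAT;NuTRAP it did not overlap between the ages. There GC balance cannot be fully told apart from model or age.

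**Figure D5:**
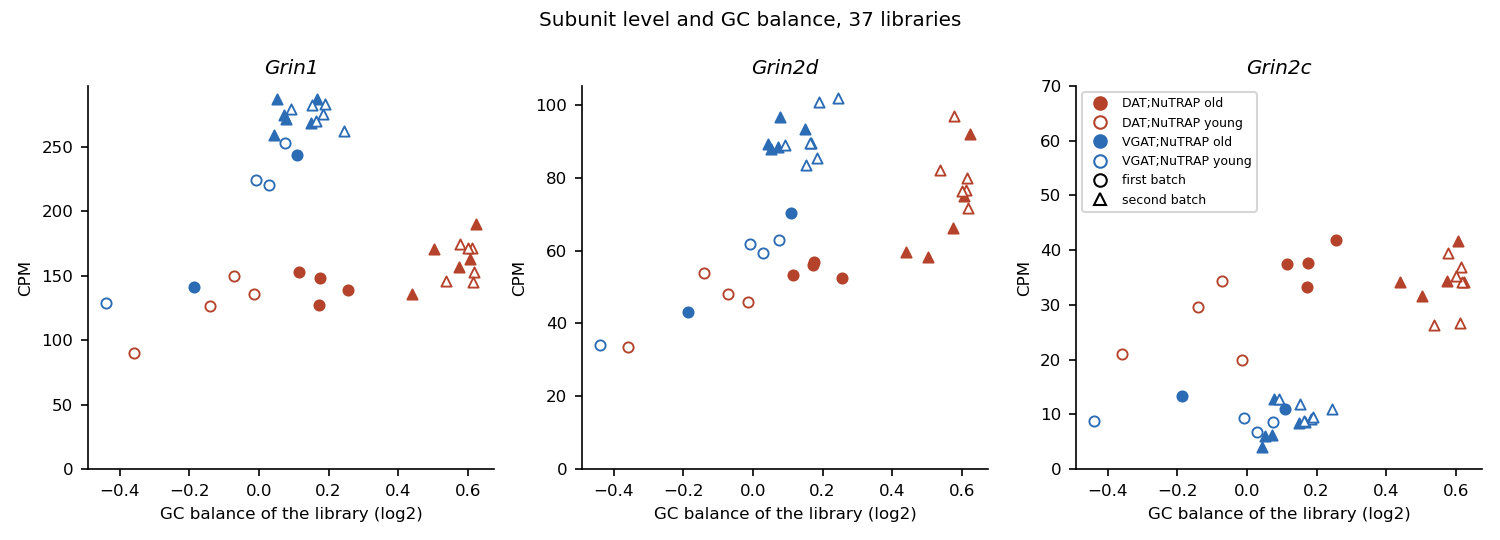
Level of Grin1, Grin2d and Grin2c (vertical axes, CPM) against the GC balance of the library (horizontal axis, difference of mean log2 CPM), 1 point per library, by model, age and batch. First-batch young DAT;NuTRAP libraries lie furthest left among DAT;NuTRAP, at -0.359 to -0.0146, and carry its lowest Grin1 value, 90.1 CPM.

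Genes that work with the receptor also differed between the models. Of 20 scaffold and trafficking partners, 13 were called lower in DAT;NuTRAP and 4 higher, where 30.4% of all genes were called lower and 30% higher, with a median log2 fold change of -0.33 against 0.01 for all genes. Dlg2, which encodes the scaffold PSD-93, had 94.1, 126 and 229 CPM as lowest, median and highest in DAT;NuTRAP, against 292, 338 and 383 CPM in VGAT;NuTRAP (-1.21). The auxiliary protein gene Neto1 was lower still (-2.55), while the adaptor gene Apba1 was higher (1.21).

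Of 25 kinases, phosphatases and calcium effectors, 14 were called lower and 6 higher (median -0.20), where 60.5% of all genes were called, about as many in each direction. Camk2g, a subunit of the kinase CaMKII, was lower (-1.05), as was the exchange factor gene Rasgrf1 (-2.15). Ptpn5, which encodes the phosphatase STEP that removes phosphate from GluN2B, was higher (0.87). Of 15 genes of co-agonist supply, 8 were called higher and 3 lower, with log2 fold changes from -3.74 to 1.75 (median 0.27). Among the higher were Phgdh (1.63), which starts serine synthesis and is known from astrocytes, and the transporter genes Slc7a10 (1.73) and Slc1a4 (0.35). Of 10 genes of the kynurenine pathway, which makes both an agonist and an antagonist of the receptor, 8 were tested and 1, Kynu (1.83), was called higher. With age, 0 genes of these 4 lists were called by edgeR in either model. Over all genes 0.00672% were called in DAT;NuTRAP and 0.0256% in VGAT;NuTRAP. Of the 10 kynurenine genes only 4 were tested with age in DAT;NuTRAP and 5 in VGAT;NuTRAP, and of the 15 co-agonist genes 14 and 15.

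The genes whose pattern over the 37 libraries was nearest to each subunit were found by the root mean square distance of log2 CPM centred on each gene's mean. Differences between models and between batches were left in, and their part in the distances was not tested. Grin1 had Adgrb1 (0.153), Prrt3 (0.174) and Zbtb7a (0.177) as neighbours. For Grin2d they were Nrxn2 (0.191), Cacng8 (0.194) and Map3k10 (0.194), and for Grin3a Tanc2 (0.165), Rtl5 (0.199) and Frrs1l (0.201). Grin2a was nearest to Dennd5b (0.227), Zkscan1 (0.231) and Aak1 (0.235), and Grin2b to Gabrb1 (0.243), Tnrc6b (0.257) and Kmt2d (0.286). For Grin2c the distances were larger: Chrna4 (0.373), a nicotinic receptor subunit gene, Syt17 (0.373) and Fam210b (0.380) came first. This distance grows with a gene's own spread, so it does not rank subunits by how isolated they are. The SD of log2 CPM was 1.01 for Grin2c and 1.61 for Grin3b, against 0.427 (Grin2d) to 0.586 (Grin3a) for the others. Grin3b, with few counts, was far from all genes, at 0.975 from H2-Bl, 1.03 from Sntb2 and 1.04 from Mcf2. Within the family the nearest pair was Grin1 with Grin2d (0.304), followed by Grin2a with Grin3a (0.331), and the farthest was Grin2c with Grin3b (2.31).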

How the data were processed

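Ventral midbrain RNA bound to GFP-tagged ribosomes was sequenced from 37 mice, 1 poly-A library each. Alignment to mm39 was with STAR 2.7.10b and counting per gene with featureCounts, per the submitters' processing notes (featureCounts version and strand setting not given in the sources used here), and the deposited values are raw counts per gene, 13841253 to 38235015 per library. The other columns of the tables are gene annotation, and the input fraction was not used here.

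Counts were tested with edgeR 4.0.16 in R 4.3.3 (TMM scaling, filterByExpr with a minimum count of 10, robust quasi-likelihood fit, batch as a term), with Benjamini-Hochberg adjustment over all genes tested and a call at an adjusted p below 0.05. The age tests used the libraries of 1 model or of 1 sex within it, and the model contrasts all 37. SE is the log2 fold change divided by the root of F. CPM are TMM-scaled over all 37 libraries. GluN2 shares were tested by permutation, exact for age. DESeq2 1.42.0 and limma 3.58.1 (voom), other scalings, filters and covariates, single batches and leaving out each library were alternatives. The tests were checked on simulated data. Named genes are the 7 subunits, the label genes Slc6a3, Th, Slc32a1, Gad1 and Gad2, up to 4 members of each pathway list with the smallest p (1 such gene is not reported here), and the 3 nearest patterns of each subunit. The members and lists were chosen with earlier results of these data known. In the alternatives, a sign that changed counts as a reversal only where the value was called in either fit or exceeded its SE in both. Coordinates and sequences came from GRCm39 with GENCODE vM39, in which 56620 of 57180 gene identifiers were found. No pair of replicate libraries agreed within sampling noise.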

Additional observations from a re-analysis of the deposited data

Results flagged for a closer look

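Within groups of 1 model, age and sex, 10 of 49 tests of a subunit found a library far from the rest of its group. Chance gives about 1 in 20 for independent tests in uniform groups. Here each group mixed the batches and some libraries were flagged more than once, so the count cannot be judged against that rate. In VGAT;NuTRAP young male 1, Grin1 was at 128.8 CPM, against 262.2 to 283 CPM in the other young males. VGAT;NuTRAP old female 1 was low for Grin2b (108.1 CPM, the others 192 to 201), Grin2d (70.46 CPM, the others 87.87 to 93.53) and Grin3a (73.2 CPM, the others 120.9 to 128.2). Both are the only first-batch library of their group, and young male 1 had the lowest GC balance of all libraries (-0.438). Old female 1 is also the only mouse of 24 months, and the other old mice were 21 months.

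DAT;NuTRAP old male 5 was high for Grin2b (379.8 CPM, the others 54.92 to 133.1) and Grin2d (91.91 CPM, the others 52.53 to 58.38). DAT;NuTRAP old female 4 was high for Grin2c (41.72 CPM, the others 33.28 to 34.3) and for Grin3b (2.949 CPM from 87 counts, the others 0 to 0.4975). Grin3b also stood apart at low counts in DAT;NuTRAP old male 4, at 0 CPM where the others had 0.307 to 0.4165 CPM, and in young male 3, at 0.8454 CPM from 30 counts where the others had 0 to 0.1565 CPM.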

How the results depend on the processing

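Over the alternatives other than leaving out a library, 944 of 975 subunit values kept their side of the threshold without reversing, 13 lost a call, 10 gained one and 8 reversed; 69 changed sign, most of them close to 0. Within the first batch alone, the age estimate reversed for Grin3a in DAT;NuTRAP (-0.23) and its females (-0.17), for Grin2b in DAT;NuTRAP males (-0.36), and for Grin2c (0.42) and Grin3a (-0.15) in VGAT;NuTRAP females, and the Grin2b difference between young mice of the models reversed (0.0598). With the replicate number as a block, Grin2b with age reversed in VGAT;NuTRAP (0.14) and its females (0.24). Replicate numbers did not pair the mice: same-numbered libraries of the ages had deviations correlated at -0.177 to 0.396, and not each correlated best with its own number. The age comparisons gave 1 call in place of 0 in DAT;NuTRAP females of the first batch (Grin2b -0.56, edgeR adjusted p = 0.0058, from 1 old library, so with no spread among old females), and without a count filter in DAT;NuTRAP males (Grin2b 0.51) and in age by sex in DAT;NuTRAP (Grin2b 0.75), 1 call each. The Grin2b difference between the models also missed the threshold with RLE scaling (edgeR adjusted p = 0.0533) and with batch effects of their own in each model (0.125), and in 18 of 37 fits without 1 library; all 37 ran from -0.54 to -0.30. Leaving out each library in turn gave 0 calls with age throughout, 6 to 7 between the models, 4 to 7 in young mice and 4 to 6 in old mice. Leaving out a library moved the Grin2c share with age in DAT;NuTRAP between 1.85 and 3.76 percentage points and the Grin2b share between the models between -3.80 and -2.20, the outer value of each being the one without old male 5. VGAT;NuTRAP males of the first batch alone could not be fitted. Causes were not tested. Grin3b had few counts, 0 to 87, and DAT;NuTRAP young male 4 was at 0 with the highest total of all libraries, 38235015 counts. The other subunits had at least 114 counts in each library.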
